A study of Caenorhabditis elegans with 2 samples.

Results

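The superoxide dismutase genes sod-1 to sod-5 and the catalase genes ctl-1 to ctl-3 of Caenorhabditis elegans are the 8 genes described here. They were chosen by name, with earlier results of these data known. These 8 genes were represented by 18 of the 43579 probes of the array, and 19806 genes in all had a probe that could be named. The data are 2 one-colour microarrays of total RNA from whole young adult worms of the N2 strain, the usual wild type. The first group was fed a soil isolate of Lysinibacillus sphaericus, a spore-forming Gram-positive species, and the second E. coli OP50, the common laboratory food. Both were fed from hatching at 20 °C, and each group has 1 array, so the study's question of what this food changes in the worm's transcripts can be answered for these RNA samples only. No test between the diets was possible, no p-value is given, and the spread between worm populations is unknown.

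Superoxide dismutases turn the superoxide radical into hydrogen peroxide and oxygen, and catalases break hydrogen peroxide down to water and oxygen. In C. elegans the copper/zinc enzymes SOD-1 and SOD-5 act in the cytosol, the manganese enzymes SOD-2 and SOD-3 in mitochondria, and SOD-4 is made in secreted and membrane-bound forms. SOD-1 and SOD-2 are the principal forms of their compartments in well-fed worms, whereas sod-3 and sod-5 are raised in dauer larvae and in mutants with low insulin signalling, where the FOXO factor DAF-16 is active. CTL-2 is the peroxisomal catalase, CTL-1 lies in the cytosol, and the compartment of CTL-3 is less well known.

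On the L. sphaericus-fed array the minor dismutase genes sod-3, sod-4 and sod-5 were lower, by 6.80-fold, 3.35-fold and 12.6-fold, while the principal genes sod-1 and sod-2 were at 1.04-fold and 1.59-fold. The catalase genes ctl-1, ctl-2 and ctl-3 were 1.27-fold, 1.83-fold and 1.33-fold lower. Folds are taken after the 75th percentile of log2 signal over all probes was subtracted from each array. Of the 8 genes, 3 were thus at least 2-fold lower with L. sphaericus and 0 at least 2-fold higher. The arrays differed widely, for 32.6% of 15300 measured genes were at least 2-fold lower and 22.1% at least 2-fold higher, so a count of 3 in 8 lies near that background. A gene is called measured when the scanner software marked at least 1 of its probes as well above background on each array, which held for all 8 genes and all 18 probes. The lowest processed signal of any of these probes was 1855, against a lowest well-above-background signal of 25.8 on the L. sphaericus-fed array and 15.7 on the OP50-fed array.

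The scale between the arrays is not fixed by these data and bears on each fold. In processed signal, the 75th percentile was 3368 on the L. sphaericus-fed array and 1439.6 on the OP50-fed array, a shift of 1.23 on the log2 scale. No external standard settles this, since the probes for the spike-in RNA had median signals of 6.11 and 4.08 on the L. sphaericus-fed and OP50-fed arrays, close to 5.92 and 3.84 for the negative controls. Scaling on the median of all probes raises every difference by 0.64, scaling that sets 77 ribosomal protein genes equal raises it by 0.87, and no scaling by 1.23. The signals themselves, the gaps between the 8 genes and their rank among all genes do not depend on such a shift, and are given beside the folds.

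The worms were measured whole, and egg-producing and sperm genes differed between the arrays along with the members. All 6 oocyte and eggshell markers were at least 2-fold higher with L. sphaericus. Their summed level, in units of each array's 75th percentile, was 144 on the L. sphaericus-fed array and 27.4 on the OP50-fed array. All 6 sperm markers were at least 2-fold lower, with summed levels of 0.477 (L. sphaericus-fed) and 3.13 (OP50-fed). Of 7 intestine markers, 2 were higher and 2 lower, with sums of 94.4 (L. sphaericus-fed) and 143 (OP50-fed). Of 7 neuron markers 1 was higher and 3 lower, with sums of 22.6 (L. sphaericus-fed) and 32.1 (OP50-fed). The intestine and neuron counts lie near the shares of all genes. Of 5 body wall muscle markers 0 were 2-fold apart, with sums of 39.2 (L. sphaericus-fed) and 45.9 (OP50-fed), and of 4 pharynx muscle markers 3 were lower, with 8.998 (L. sphaericus-fed) and 21.1 (OP50-fed). Of 5 epidermis and adult cuticle markers 2 were higher, with sums of 38.3 (L. sphaericus-fed) and 22.2 (OP50-fed). Of 5 germline markers 3 were higher, with 33.6 (L. sphaericus-fed) and 18.3 (OP50-fed), and of 5 measured yolk genes 4 were higher, with 269.5 (L. sphaericus-fed) and 55.5 (OP50-fed). Such sums add signals of different probes and lean on a few bright genes, so they do not measure the amount of a tissue. The median difference of the intestine list lay 0.13 above that of all genes, although its sum was lower, and that of the neuron list 0.33 below. The gene furthest from 0 in each list had a log2 difference of 3.26 for oma-2 of oocytes, −2.996 for spe-4 of sperm, 2.88 for pho-1 of the intestine and −3.34 for egl-3 of neurons. For the others it was −0.86 for unc-15 of body wall muscle, −1.74 for myo-2 of the pharynx, 1.73 for col-19 of the adult cuticle, 1.97 for glp-1 of the germline and 8.08 for the yolk gene vit-1. These counts shift with the scale too. With median scaling 0 intestine, 1 pharynx and 6 sperm markers were lower, against 20.8% of all genes. With ribosomal scaling 0 intestine, 0 pharynx and 4 sperm markers were lower, against 16.9% of all genes. All 6 oocyte and eggshell markers were higher under both scalings, against 37.9% (median) and 42.8% (ribosomal) of all genes. Each tissue of the whole-body label had markers well above background on both arrays, and vit-3 alone of all markers had no measured probe. Fewer cells of a type and less RNA per cell cannot be told apart in whole worms, and the part of tissue make-up in the differences below was not tested.

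**Figure D1:**
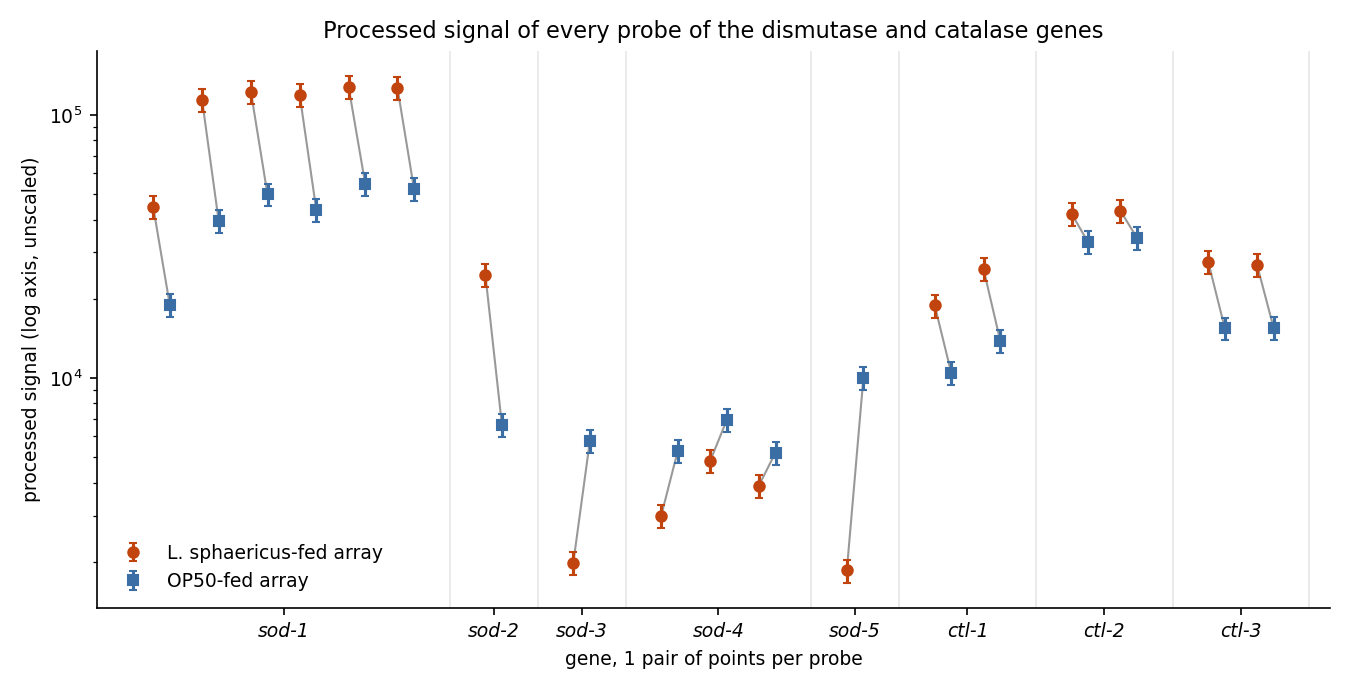
Processed signal (vertical log axis, not scaled between arrays) of each of the 18 probes, with circles for the L. sphaericus-fed array, squares for the OP50-fed array and bars for the scanner software's signal error. The squares lie above the circles for the probes of sod-3, sod-4 and sod-5, and below them for every probe of the other 5 genes.

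The cytosolic dismutase gene sod-1 had 6 probes, 5 named for transcript a and 1 for transcript b. The transcript a probes had processed signals of 113947, 122249, 118629, 127671 and 126632 on the L. sphaericus-fed array, against 39595, 49844, 43446, 54814 and 52277 on the OP50-fed array. The transcript b probe had 44641 on the L. sphaericus-fed array and 18924 on the OP50-fed array. Before scaling, each of the 6 probes was thus brighter with L. sphaericus, by 2.33-fold to 2.88-fold, which is close to the shift of the arrays as a whole. After scaling, the log2 difference of sod-1 was 0.06 ± 0.12 (median and SD over 6 probes), from −0.01 to 0.30, with 0.01 for the transcript b probe. The scanner software's own error for the difference of 1 probe was 0.20, and the SD over repeated spots of a probe was 0.15 on the log2 scale, so on this scale sod-1 did not stand apart from 0 beyond technical error. It did on others, at 0.46 with quantile normalization, 0.47 with loess, 0.70 with median scaling, 0.92 with ribosomal scaling and 1.29 with none.

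The other cytosolic gene, sod-5, had a single probe, at 1855 on the L. sphaericus-fed array and 10020 on the OP50-fed array. It was dimmer with L. sphaericus before any scaling, at 0.185 of the OP50-fed signal, and its scaled log2 difference was −3.66 (scanner error 0.20), the lowest of the 8 genes. Of all measured genes, 1.58% had a lower difference. The gap between sod-1 and sod-5 was 3.72 on the log2 scale, or 13.2-fold, with a scanner error of 0.29, and it ranged from 3.65 to 4.42 over 13 ways of processing. Scalings that shift all genes alike cannot change this gap, so its range rests on the other ways. In each of the 13 the cytosolic pair parted by more than 10 times the scanner error. That error was 0.20 for every probe of the 8 genes, so it says nothing particular to the single probe of sod-5.

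The mitochondrial genes parted in the same manner. The single probe of sod-2 had a signal of 24663 on the L. sphaericus-fed array and 6616 on the OP50-fed array, 3.73-fold brighter before scaling and 0.67 on the log2 scale after it (scanner error 0.20). The single probe of sod-3 had 1983 on the L. sphaericus-fed array and 5765 on the OP50-fed array, a ratio of 0.344 before scaling and a log2 difference of −2.77 after it (scanner error 0.20). The gap between sod-2 and sod-3 was 3.44, or 10.8-fold (scanner error 0.29, from 3.34 to 3.50 over the 13 ways of processing). With 1 probe for each gene, only quantile normalization, loess and normexp moved this gap. Of the measured genes, 69.8% had a lower difference than sod-2 and 5.32% a lower one than sod-3. The proteins of sod-2 and sod-3 are close relatives, and whether their probes are free of cross-hybridisation was not tested, since probe sequences were not used here.

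The gene sod-4, of the extracellular enzyme, had 3 probes, at 2997, 4824 and 3900 on the L. sphaericus-fed array and 5293, 6902 and 5207 on the OP50-fed array. All 3 were dimmer with L. sphaericus even before scaling, at 0.566 to 0.749 of the OP50-fed signal. The scaled log2 difference was −1.74 ± 0.21 (median and SD over 3 probes), from −2.05 to −1.64. Its size rests on the scale more than those of sod-3 and sod-5, for it was −1.098 with median scaling, −0.88 with ribosomal scaling and −0.52 with none, the last of these under 2-fold along with the ribosomal value. Of the measured genes, 19.1% had a lower difference.

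The 3 catalase genes lie next to one another in the RefSeq gene table of assembly WBcel235, with ctl-1 between ctl-2 and ctl-3 on chromosome II, and their sequences are alike, so that a probe may also take up the transcripts of a neighbour. The probes of ctl-1 had signals of 18860 and 25890 on the L. sphaericus-fed array, against 10416 and 13882 on the OP50-fed array. Those of ctl-2 had 42144 and 43243 on the L. sphaericus-fed array, against 32806 and 34101 on the OP50-fed array. Those of ctl-3 had 27596 and 26849 on the L. sphaericus-fed array, against 15427 and 15451 on the OP50-fed array. Every catalase probe was brighter with L. sphaericus before scaling, ctl-2 by 1.27-fold and 1.28-fold, and the other 4 probes by 1.74-fold to 1.87-fold.

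After scaling, the log2 differences of the catalase probes were −0.37 and −0.33 for ctl-1, −0.86 and −0.88 for ctl-2, and −0.39 and −0.43 for ctl-3. The genes ctl-1 and ctl-3 differed from each other by 0.06, less than the scanner error of 0.29 for a gap between 2 probes. The peroxisomal gene ctl-2 lay below both, by 0.53 against ctl-1 and 0.47 against ctl-3, with each of its 2 probes below each of the 4 others. These gaps are under 2 times the scanner error and shrank to 0.25 and 0.26 at the lowest of the 13 ways of processing. The direction of each catalase gene against 0 depends on the scale. The difference of ctl-1 was 0.30 with median scaling and 0.52 with ribosomal scaling, that of ctl-3 was 0.24 and 0.46, and that of ctl-2 was −0.23 and −0.01, turning to 0.35 with no scaling. Of the measured genes, 47.1% had a lower difference than ctl-1, 45.8% than ctl-3 and 35.5% than ctl-2.

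**Figure D2:**
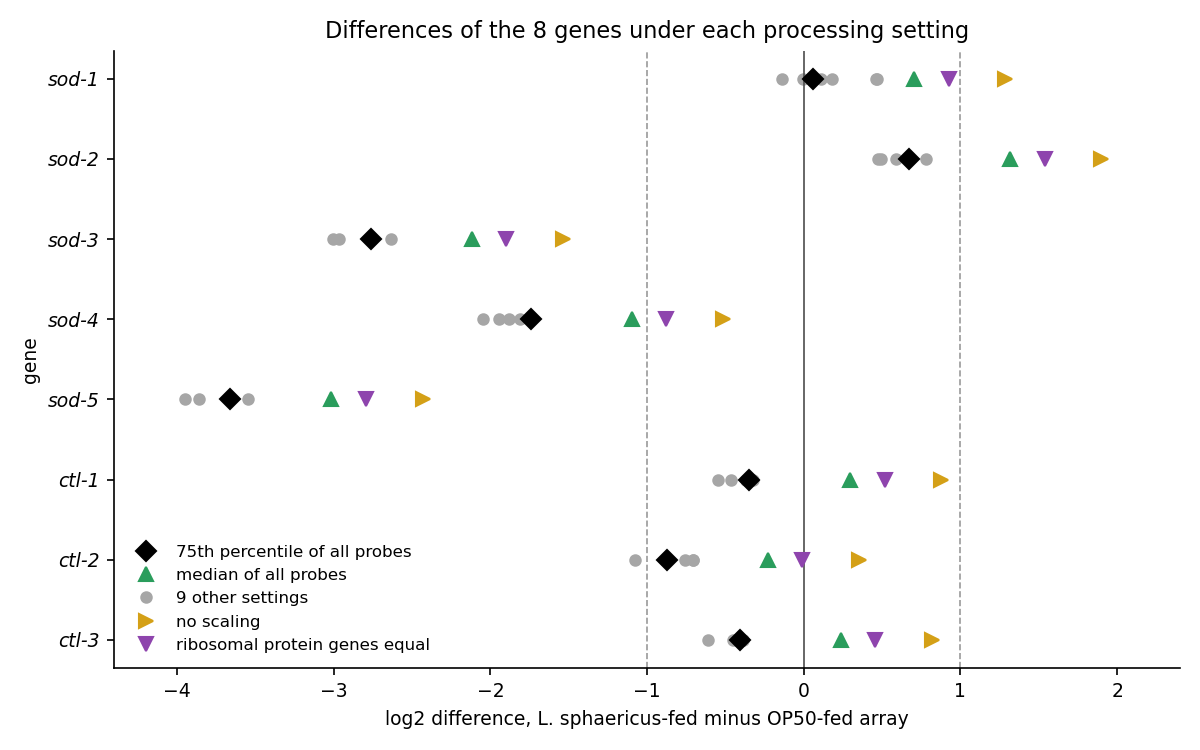
Log2 difference (L. sphaericus-fed minus OP50-fed, horizontal axis) of each of the 8 genes under 13 ways of processing, with dashed lines at 2-fold either way. The genes sod-3 and sod-5 stay below −1 throughout, sod-4 does so in 11 of 13, and the points of ctl-1, ctl-2, ctl-3 and sod-1 fall on both sides of 0.

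Signals of different probes cannot be set against each other as levels, but the differences can be ordered. From low to high the order was sod-5, sod-3, sod-4, ctl-2, ctl-3, ctl-1, sod-1 and sod-2. The gaps between neighbours were 0.89 for sod-5 and sod-3, 1.02 for sod-3 and sod-4, and 0.87 for sod-4 and ctl-2. Then followed 0.47 for ctl-2 and ctl-3, 0.06 for ctl-3 and ctl-1, 0.41 for ctl-1 and sod-1, and 0.61 for sod-1 and sod-2. The gap between ctl-3 and ctl-1 lay within the scanner error of 0.29, and those on either side of this pair were between 1 and 2 times that error. The last gap fell to 0.02 at its lowest over the ways of processing, so sod-1 and sod-2 were not apart in each of them. The median over the 8 genes was −0.64, against −0.20 over all measured genes, so it lay 0.45 below that of all genes, while the SD of the difference over all measured genes was 1.61. With median scaling 1 of the 8 genes (sod-2) was at least 2-fold higher and 3 lower, against 37.9% and 20.8% of all genes. With ribosomal scaling 1 was higher and 2 lower, against 42.8% and 16.9%, and with no scaling 2 were higher and 2 lower, against 50.6% and 11.6%. Scaled on the 75th percentile of detected probes only, ctl-2 joined the lower genes, which made 0 higher and 4 lower against 17.2% and 37.2%. At 1.5-fold 1 member was higher and 4 lower, against 32.5% and 41.9% of all genes, and at 3-fold 0 and 3, against 9.87% and 21.7%.

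**Figure D3:**
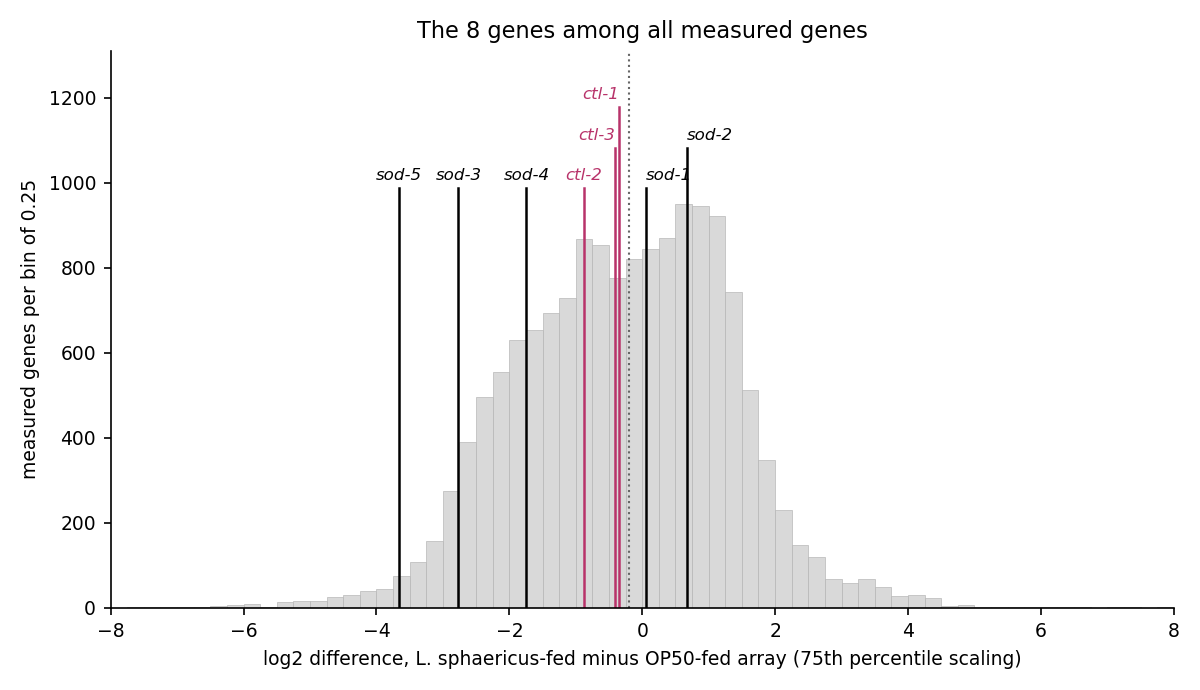
Number of measured genes (vertical axis) by log2 difference, L. sphaericus-fed minus OP50-fed, in bins of 0.25 from −8 to 8, with the 8 genes as lines and the median of all genes, −0.20, as a dotted line. The lines of sod-5 (−3.66) and sod-3 (−2.77) stand in the lower tail, and those of the catalase genes and sod-1 in the middle.

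Hydrogen peroxide is also removed by peroxiredoxins, which are recharged by thioredoxin, and by enzymes that use glutathione. Of 11 measured genes of the thioredoxin and peroxiredoxin system, 0 were at least 2-fold higher and 2 lower, against 22.1% and 32.6% of all genes. The median of this list was 0.05 above that of all genes, so its middle lay near the bulk of genes, as sod-1 did. The peroxiredoxin gene prdx-2 had a signal of 168100 on the L. sphaericus-fed array and 79680 on the OP50-fed array, a scaled log2 difference of −0.15. The mitochondrial peroxiredoxin gene prdx-3 was at 0.09 ± 0.12 (SD over 3 probes). The lower genes were msra-1, a methionine sulfoxide reductase gene, at 6.76-fold (signals of 18876 with L. sphaericus and 54549 with OP50), and the thioredoxin reductase gene trxr-1, at 2.25-fold, which was at −0.53 with median scaling and 0.06 with none.

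Of 15 measured genes of the glutathione system, 1 was at least 2-fold higher and 2 lower, against 22.1% and 32.6% of all genes. The median of this list lay 0.22 above that of all genes. The glutaredoxin gene glrx-21 was 2.22-fold higher (log2 1.15 ± 0.06, SD over 2 probes). The glutathione peroxidase genes gpx-6 and gpx-3 were 5.77-fold and 2.04-fold lower (−2.53 ± 0.12 over 2 probes and −1.03 ± 0.53 over 3), and gpx-3 was at −0.38 with median scaling. The gene gcs-1, whose enzyme takes the first step of glutathione synthesis and which is a common reporter of the factor SKN-1, had signals of 7615 on the L. sphaericus-fed array and 2769 on the OP50-fed array, a log2 difference of 0.23. With median scaling 5 genes of this list were at least 2-fold higher and 1 lower, against 37.9% and 20.8% of all genes.

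Genes around the sources of hydrogen peroxide were mostly within 2-fold on the 75th percentile scale, where 22.1% of all genes were higher and 32.6% lower. Of 4 genes for the dual oxidases of the cell surface and their partners, 0 were 2-fold apart, with the dual oxidase genes bli-3 and duox-2 at −0.53 and −0.65 ± 0.03 (SD over 2 probes), both near or above 0 with median scaling (0.11 and −0.01). Of 9 measured genes of peroxisome biogenesis, 1 was higher and 1 lower, prx-19 at 2.11-fold higher and prx-2 at 2.51-fold lower (−0.69 with median scaling, within 2-fold), with a median 0.14 below that of all genes. Of 9 measured genes of peroxisomal beta-oxidation, the pathway whose acyl-CoA oxidases release hydrogen peroxide, 3 were at least 2-fold higher and 0 lower, with a median 0.84 above that of all genes. The oxidase genes acox-1.5 and acox-1.3 were 2.34-fold higher (1.23 on a single probe and 1.22 ± 0.02 over 2 probes). With median and with ribosomal scaling 7 of the 9 were higher, against 37.9% and 42.8% of all genes. The peroxisomal catalase gene ctl-2 lay 0.68 below the median of all genes, which was −0.20. The oxidase genes acox-1.6 (−0.78) and acox-1.1 (−0.36) of this list lay below that median too, and the rest of the list above it.

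The regulators of antioxidant genes went both ways. Past 2-fold there were 8 lower and 3 higher among all 20 of them, and their median lay 0.53 below that of all genes. These are 40% and 15% of the list, near the 32.6% and 22.1% of all genes. Median scaling left 2 lower and made 5 higher, against 20.8% and 37.9% of all genes. The gene pqm-1, of a zinc finger factor that acts opposite DAF-16, was 7.23-fold lower (signals of 10570 with L. sphaericus and 32655 with OP50), and akt-2, of a kinase that holds DAF-16 out of the nucleus, 3.21-fold lower (−1.68 ± 0.28, SD over 2 probes). Among the 3 higher genes was age-1, of the phosphoinositide kinase of insulin signalling, at 2.29-fold (1.19 ± 0.17, SD over 3 probes), and it is given as an example of them. The insulin receptor gene daf-2 was 2.64-fold lower, with an SD of 0.33 on the log2 scale over 7 probes, but within 2-fold at −0.76 with median scaling and −0.53 with ribosomal scaling. The gene daf-16 was at −0.97 ± 0.35 (5 probes) and skn-1 at 0.07 ± 0.46 (3 probes), and both turned sign over the ways of processing. Transcript levels of such kinases and factors do not measure their activity, which was not measured here.

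Of 10 measured reporters of oxidative and related stress, 0 were at least 2-fold higher and 7 lower, against 22.1% and 32.6% of all genes. The median of this list lay 1.23 below that of all genes. The list, like the others, was chosen with earlier results of these data known, so its counts describe these genes only. With median scaling 2 were higher and 4 lower, against 37.9% and 20.8% of all genes. With ribosomal scaling the counts were 2 and 3, against 42.8% and 16.9%. The metallothionein gene mtl-1 was 51.4-fold lower (signals of 1324 with L. sphaericus and 29107 with OP50) and the ferritin gene ftn-1 7.49-fold lower (6733 with L. sphaericus and 21567 with OP50). Like sod-3, both are known to be raised when DAF-16 is active. Targets of DAF-16 were not listed as a set here, so these genes do not stand for all of them. Whether DAF-16 has a part in their differences was not tested. The SKN-1 reporter gst-4 had no probe that could be named here.

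**Figure D4:**
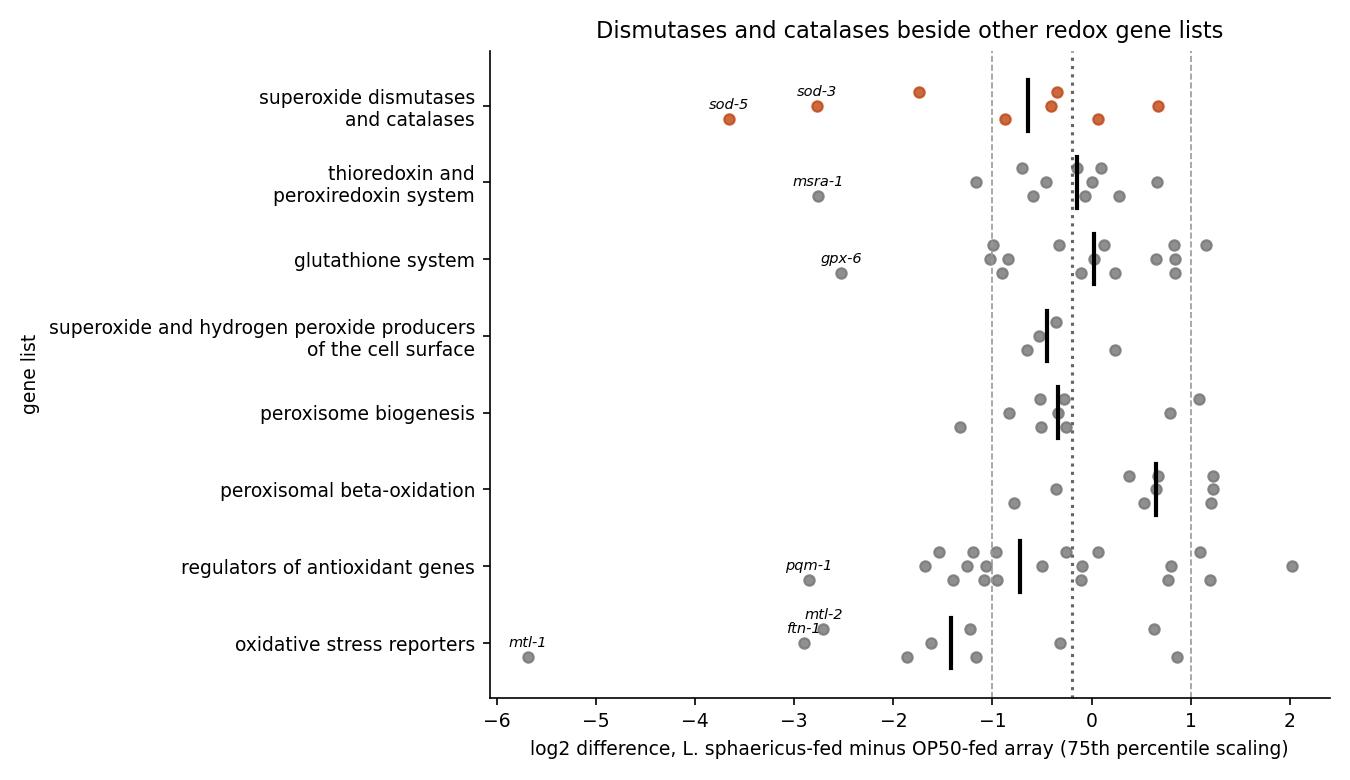
Log2 difference (L. sphaericus-fed minus OP50-fed, horizontal axis) of each measured gene of the dismutases and catalases (top row) and of 7 lists of related genes, with the median of each list as a bar and that of all genes as a dotted line. The lists spread over both sides of the line, and mtl-1 (−5.68) lies furthest from it.

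The gene of these lists nearest to each member in difference was also looked up. With so many list genes some gene lies close to almost any value, and the likeness rests on a single difference from 2 arrays, so it is a description only. The nearest gene was msra-1 for sod-3 (−2.76 beside −2.77), akt-2 for sod-4 (−1.68 beside −1.74) and skn-1 for sod-1 (0.07 beside 0.06, with probes of skn-1 from −0.71 to 0.10). It was acox-1.2, of an acyl-CoA oxidase, for sod-2 (0.67 for both, although acox-1.2 fell to −0.09 at its lowest over the ways of processing), gpx-1 for ctl-2 (−0.90 beside −0.87), tsp-15 for ctl-1 (−0.36 beside −0.35) and acox-1.1 for ctl-3 (−0.36 beside −0.41). The nearest to sod-5 was ftn-1, which lay 0.75 from it.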

How the data were processed

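The scans went through Agilent Feature Extraction 11.0.1.1, per the file headers, and background was subtracted there. The headers give both arrays the same slide and scan. The authors deposited linear intensity values of each spot with their errors and other marks of the software, such as flags. The deposited table of the series holds the same intensity, within 0.01 log2 units of the probe mean for 43594 of 43603 probes (L. sphaericus-fed) and 43596 (OP50-fed), with medians of 369 (L. sphaericus-fed) and 247 (OP50-fed), so it is linear and neither scaled nor centred.

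Control spots and 36 outlier spots were left out and 0 spots were saturated. Repeated spots were averaged on the log2 scale, and each array's 75th percentile was subtracted. For each gene, the differences L. sphaericus-fed minus OP50-fed of its measured probes (31044 of 43579 probes were measured) were reduced to their median. Names came through systematic names from RefSeq (WBcel235), for 34297 probes. The array design cites another build, so no coordinates are given. Errors are the scanner software's, the SD over probes, and the SD over repeated spots (33 probes with at least 3 spots). Precision is limited by there being 2 arrays.

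The members and lists were chosen with earlier results of these data known. Text names all members, the 2 genes of a list furthest in each direction past 2-fold (where there are none, the 2 brightest), 7 fixed genes (daf-16, daf-2, skn-1, gcs-1, gst-4, prdx-2, prdx-3), the nearest gene to each member, and the gene furthest from 0 of each marker list. A gene the rule would name is not reported here. Alternatives were scalings (median, detected probes, ribosomal, none, quantile, loess with span 0.3), normexp with offset 50 on the median spot and background signals (mean spot signals were not used here), filters, summaries over probes, the series table, and 1.5-fold and 3-fold thresholds. The gene summary was tested on simulated data in which few genes changed, so that test does not bear on the scale between these arrays. Python 3.11.15, R 4.3.3 and limma 3.58.1 were used.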

Additional observations from a re-analysis of the deposited data

How the results depend on the processing

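The order of values here is sod-1, sod-2, sod-3, sod-4, sod-5, ctl-1, ctl-2, ctl-3. With the median of all probes the differences were 0.70, 1.32, −2.12, −1.098, −3.01, 0.30, −0.23 and 0.24. With ribosomal scaling they were 0.92, 1.54, −1.90, −0.88, −2.79, 0.52, −0.0086 and 0.46, and with no scaling 1.29, 1.898, −1.54, −0.52, −2.43, 0.88, 0.35 and 0.82. These scalings add a constant to all genes, which is the cause of the shift. Quantile normalization gave 0.46 for sod-1, and loess gave 0.47 for sod-1, −3.01 for sod-3, −2.05 for sod-4 and −3.95 for sod-5. The cause was not tested. The other settings moved no member by more than its scanner error, although the 75th percentile of detected probes put ctl-2 at −1.07, past 2-fold, so that 4 members were lower. The genes sod-3, sod-4 and sod-5 were below 0 and sod-2 above 0 in all 13 ways of processing. These ways overlap, since filters and summaries over probes left the single-probe genes sod-2, sod-3 and sod-5 as they were.

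The count of members at least 2-fold higher was 1 with median scaling (37.9% of all genes), 1 with ribosomal scaling (42.8%) and 2 with no scaling (50.6%). At a 1.5-fold threshold 1 was higher (32.5% of all genes) and 4 were lower (41.9%). At 3-fold 0 were higher (9.87%) and 3 lower (21.7%). The median of members relative to all genes was −0.64 with quantile normalization, −0.69 with loess, −0.23 with normexp, −0.16 without the filter on dim probes and −0.69 with probes no dimmer than the median probe, and below all genes in each of these.

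With median scaling, higher and lower genes numbered 1 and 1 of 11 for the thioredoxin and peroxiredoxin system and 5 and 1 of 15 for glutathione. They numbered 2 and 0 of 9 for peroxisome biogenesis and 7 and 0 of 9 for peroxisomal beta-oxidation. For regulators they were 5 and 2 of 20, and for stress reporters 2 and 4 of 10. Of all genes, 37.9% were higher and 20.8% lower with this scaling. With ribosomal scaling the counts were 2 and 1, 6 and 1, 2 and 0, 7 and 0, 5 and 1, and 2 and 3 in that order. The dual oxidase list had 1 and 0 of 4, and of all genes 42.8% were higher and 16.9% lower. No paired analysis was possible because each diet has 1 array. The alternative with probes that match 1 gene was not run, since probe sequences were not used here. Signal over background did not limit any of the 8 genes, while the lack of a second array per diet limits all of them.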

Other observations

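Besides the genes past 2-fold given above, several genes of glutathione and peroxide metabolism lay within 2-fold on either side of 0. Those named here were picked after their values were seen. The glutathione synthetase gene gss-1 had signals of 13225 on the L. sphaericus-fed array and 3170 on the OP50-fed array, a scaled log2 difference of 0.83. The glutaredoxin genes glrx-5 and glrx-22 were at 0.84 and 0.84 ± 0.11 (SD over 5 probes), and prdx-6, a peroxiredoxin gene, was at 0.65 ± 0.12 (SD over 3 probes). Each of these 4 was at least 2-fold higher with median scaling, as were 37.9% of all genes. The glutathione peroxidase gene gpx-5 had 2 probes far apart, with an SD of 1.24 on the log2 scale between them, and its median was 1.998-fold lower. The genes gpx-1 and gpx-7 of the same family were 1.86-fold and 1.797-fold lower, and all 3 were within 2-fold on the lower side with median scaling (−0.35, −0.25 and −0.20).

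The glutathione peroxidase gene gpx-4 was well above background on 1 array only and has no fold here. The thioredoxin gene trx-5 was well above background on neither array.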
